A study of Mus musculus with 2 samples.

Results

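The 9 genes described here carry thyroid hormone, move it into the brain, switch it on or off, read it in the nucleus and respond to it. They were taken by name from the 55536 annotated genes of the gene tables, and all 9 were found. Ttr encodes transthyretin and Crym encodes mu-crystallin, which both bind the hormone. Slco1c1 encodes a membrane transporter, Dio2 and Dio3 encode deiodinases, Thra and Thrb encode the nuclear receptors, and Klf9 and Hr are target genes.

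RNA was measured in hippocampus of female B6CASTF1/J mice, F1 hybrids of a laboratory strain and a wild-derived strain, at 10 days of age. The series held 1 untreated group of 2 libraries, biological replicates 2 and 1, each from 300 ng of RNA of a pool of 3 mice. The pools came from differently numbered animals. Which layer of the hippocampus the tissue label means is not said. Replicate 2 held 32275110 expected counts and replicate 1 held 29858328 (estimated reads per gene). No treatment, sex or age was compared, so levels in this 1 tissue were ordered and the libraries were compared with each other.

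The thyroid gland releases mostly thyroxine, a prohormone that is turned into the active triiodothyronine inside the brain. Astrocytes carry out that step with the type 2 deiodinase, while neurons hold the type 3 enzyme that inactivates both hormones. The receptors sit on DNA as partners of retinoid X receptors, hold corepressors without hormone and recruit coactivators with it. In rodents the first postnatal weeks are the period in which hippocampal growth and myelination depend on the hormone.

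Several stretches of coding sequence separate the forms that the results below turn on. All were read from GENCODE M21 transcripts on build mm10, and Thra lies on chromosome 11, plus strand. Thra makes the receptor alpha1, which binds hormone, and alpha2, which has another end and does not bind it. The ends of 3 annotated Thra transcripts follow, each with 30 shared coding bases in lower case and the next 60 of that transcript in capitals. The capitals lie at chr11:98764406-98764465 for alpha1, at chr11:98768157-98768216 for alpha2, and at chr11:98768274-98768333 for the incomplete Thra-203.
alpha1, Thra-202: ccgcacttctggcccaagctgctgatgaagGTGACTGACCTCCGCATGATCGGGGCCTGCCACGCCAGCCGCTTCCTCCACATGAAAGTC
alpha2, Thra-201: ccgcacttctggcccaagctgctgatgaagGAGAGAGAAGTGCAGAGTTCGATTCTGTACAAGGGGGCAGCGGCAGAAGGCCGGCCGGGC
Thra-203: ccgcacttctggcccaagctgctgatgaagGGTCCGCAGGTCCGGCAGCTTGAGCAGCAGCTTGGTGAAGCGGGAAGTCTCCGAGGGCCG
The alpha1 and alpha2 forms share their first 370 codons, after which alpha1 has 120 coding bases of its own and alpha2 has 366. The last exon of Thra-203 starts 117 bases further along than that of alpha2.

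Thrb, on chromosome 14, plus strand, makes beta1 and beta2, which differ at their start. The 60 coding bases of each form before the first shared exon are in capitals, and 30 shared bases follow. The capitals lie at chr14:17963262-17963321 for beta1 and at chr14:17982142-17982201 for beta2.
beta1, Thrb-201: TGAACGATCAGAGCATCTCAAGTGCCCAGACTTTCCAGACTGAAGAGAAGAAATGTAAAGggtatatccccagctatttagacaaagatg
beta2, Thrb-202: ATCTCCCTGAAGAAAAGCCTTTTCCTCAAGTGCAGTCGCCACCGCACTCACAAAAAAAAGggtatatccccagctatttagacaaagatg

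Where the forms touch DNA, the receptors are close relatives. The stretch that encodes the DNA-reading part of the first zinc finger is shown with the bases that differ between the genes in capitals. It had 51 of 63 bases in common, or 81.0%. The run is spliced within chr11:98756994-98760908 for Thra and within chr14:18002599-18008601 for Thrb.
Thra: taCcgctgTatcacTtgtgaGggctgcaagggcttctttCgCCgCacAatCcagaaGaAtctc
Thrb: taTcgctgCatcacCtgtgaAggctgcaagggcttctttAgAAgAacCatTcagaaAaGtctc

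Both deiodinases need selenium, because their active site holds selenocysteine, encoded by TGA, which elsewhere is a stop codon. The codon is in capitals within 63 coding bases, of which Dio2 and Dio3 share 41, or 65.1%. The Dio2 run lies at chr12:90729793-90729855 on the minus strand and the Dio3 run at chr12:110279709-110279771 on the plus strand. The codon is number 130 of 266 in Dio2 and number 170 of 304 in the longer coding transcript of Dio3, and Dio2 has another TGA annotated as selenocysteine at codon 263.
Dio2: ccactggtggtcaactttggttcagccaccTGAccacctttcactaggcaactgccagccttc
Dio3: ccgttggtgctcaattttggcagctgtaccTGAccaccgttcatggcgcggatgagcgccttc

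Levels are in TPM, which corrects for transcript length and gives every library the same total, and errors are SD over the 2 libraries. Thra, with a mean of 584 ± 0.997 TPM, and Ttr, with 546 ± 175 TPM, were the most abundant of the 9 genes. They ranked 43 and 48 among 22015 nuclear protein-coding genes by mean TPM. Crym followed at 269 ± 8.93 TPM, rank 191. Klf9 (59.7 ± 7.81 TPM) and Slco1c1 (39.5 ± 0.346 TPM) ranked 1686 and 2767. Dio2 stood at 19.9 ± 0.212 TPM, Thrb at 16.2 ± 1.76 and Hr at 10.2 ± 1.88. Dio3, at 1.76 ± 1.12 TPM, was lowest, at rank 12453. Neighbours in this order were told apart where the log2 ratio of TPM + 0.1 shared its sign between the libraries and its mean exceeded 2 SD. With 2 libraries the smallest two-sided sign-flip p is 0.5, so no test was made. By that rule Crym stood above Klf9, Klf9 above Slco1c1, Slco1c1 above Dio2, and Hr above Dio3. Thra and Ttr, Ttr and Crym, Dio2 and Thrb, and Thrb and Hr were not told apart.

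**Figure D1:**
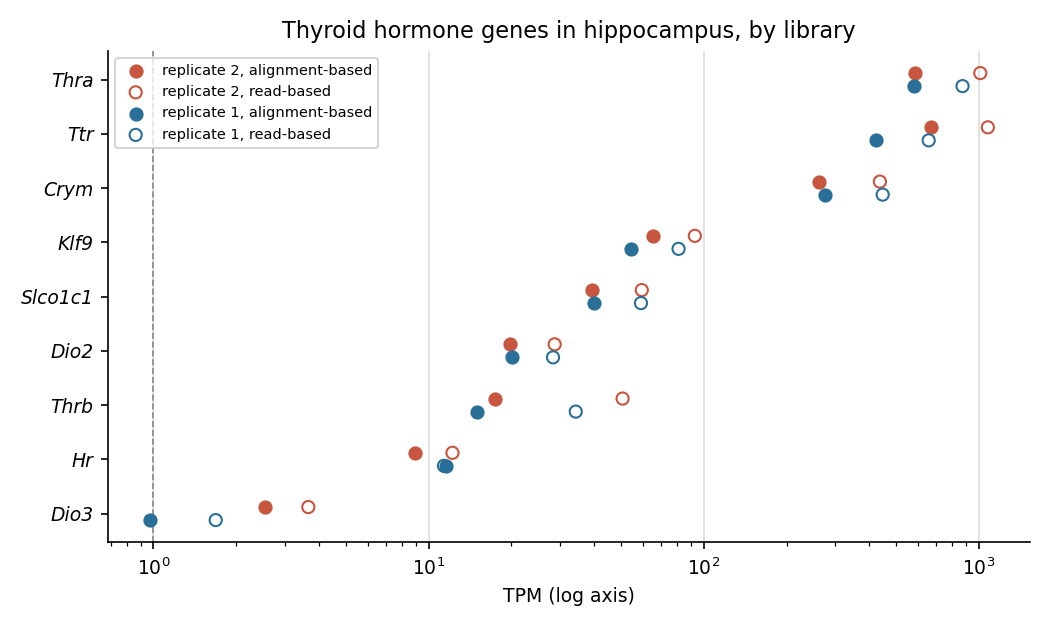
TPM (log axis) of the 9 genes, in order of mean TPM, in replicate 2 (red) and replicate 1 (blue), from the alignment-based tables (filled) and the read-based tables (open). Thra is at 584 and 583 TPM in replicates 2 and 1, Ttr at 670.1 and 422 TPM, and Dio3 at 2.55 and 0.97 TPM, around the dashed detection line at 1.

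A second deposited quantification, made from the reads and an index, gave a higher mean TPM over the 2 libraries for all 9 genes. In replicate 1 alone, Hr was slightly lower in it, at 11.4 TPM beside 11.6. Its ratio to the alignment-based TPM had a median of 1.52 over the 9, beside 1.57 over protein-coding genes at a TPM of 1 or more. Thrb lay furthest from this, with a ratio of 2.63, and it then stood at 42.5 ± 11.6 TPM, above Dio2 at 28.5 ± 0.273. Hr was at the other end, with a ratio of 1.15.

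The hormone's carriers differed widely in this tissue. Ttr (chr18:20665280-20674321, plus strand) had 670.1 TPM in replicate 2 and 422 TPM in replicate 1, from 16511 and 9486 expected counts. Transthyretin carries thyroxine in cerebrospinal fluid and is made in the brain by the choroid plexus, the secretory epithelium of the ventricles. Crym (chr7:120186380-120202111, minus strand) had 263 and 276 TPM, from 7756 and 7505 counts, and its protein holds triiodothyronine in the cytosol. The blood carriers made in liver were near 0. Alb, serum albumin, had 0.05 and 0.03 TPM, and Serpina7, the thyroxine-binding globulin, had 0 counts in both libraries, which allows up to 3 counts in each. Of 5 carriers, Ttr and Crym reached a TPM of 1 in both libraries. No gene of a 5-gene hepatocyte list did so, and that list summed to 1.42 and 1.41 TPM.

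Because the tissue is bulk, fewer cells of a type and less RNA per cell cannot be told apart. Choroid plexus markers other than Ttr were low: 12 of 13 reached a TPM of 1 in both libraries, none was at 0, and their sum was 126 TPM in replicate 2 and 81.6 TPM in replicate 1. Enpp2, which other cells also make, supplied 88.2 and 52.4 TPM of that sum. Folr1, a folate receptor of that epithelium, had 7.71 and 7.51 TPM. Ttr exceeded Folr1 by a log2 ratio of 6.11 ± 0.44, or 69.0-fold.

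Among the genes for transport across membranes, Slco1c1 stood at nearly the same level in both libraries. Slco1c1 (chr6:141524368-141570177, plus strand), a thyroxine transporter of brain capillaries and astrocytes in rodents, had 39.3 TPM in replicate 2 and 39.8 TPM in replicate 1, from 2281 and 2072 counts. Slc3a2 (96.4 ± 4.94 TPM) and Slc7a5 (65.7 ± 2.27 TPM), the chains of an amino acid exchanger that also takes up thyroid hormone, were higher. Of 11 transporters, 6 reached a TPM of 1 in both libraries, or 54.5%, beside 59.1% of protein-coding genes. Slc17a4 had 0 counts. Endothelial markers summed to 142 and 135 TPM and astrocyte markers to 1592 and 1426 TPM in replicates 2 and 1, and all 16 genes of these lists reached a TPM of 1 in both.

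Most Slco1c1 RNA was assigned to transcripts that the annotation gives as targets of nonsense-mediated decay, the pathway that degrades RNAs with an early stop. Together the 2 transcripts of this class held 69.6% of the gene's TPM in replicate 2 and 70.1% in replicate 1. The coding transcripts held 27.1% and 26.6%. Among them the transcript with 666 codons held 19.2% and 22.9% of the gene's TPM, and that with 715 codons held 7.89% and 2.97%. The split between these forms is uncertain. Deposited posterior SDs, the uncertainty of an estimated count, were 94.4 and 47.5 on 216 and 75.2 counts of the form with 715 codons. For that with 666 codons they were 75.7 and 62.3 on 414 and 454 counts. The log2 ratio of decay-type to coding TPM was 1.37 ± 0.02, or 2.58-fold, and 4.17-fold in the read-based tables. The more abundant decay-type transcript, with 469 codons before its stop, lacks 41 bases at the start of an exon that both of these coding transcripts contain, at chr6:141559741-141559781. The form with 715 codons is shown with these bases in capitals, and the shorter form has the early stop codon in capitals, at chr6:141559798-141559800.
Slco1c1, 715 codons: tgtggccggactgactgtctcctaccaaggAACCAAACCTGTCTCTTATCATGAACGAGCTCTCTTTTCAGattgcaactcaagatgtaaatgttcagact
Slco1c1, 469 codons: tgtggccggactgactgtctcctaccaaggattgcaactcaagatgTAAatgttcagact
No base of the shorter form is absent from the longer, so the choice between them rests on reads in or across these 41 bases and on the 457 bases by which the 3′ end of the longer form extends further. The form with 666 codons has 76 bases at its 3′ end that the shorter form lacks. Whether RNAs of the decay-type transcripts are degraded was not measured.

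RNA of the activating deiodinase exceeded that of the inactivating one. Dio2 (chr12:90724552-90738438, minus strand) had 19.7 TPM in replicate 2 and 20.0 TPM in replicate 1, from 2557 and 2365 counts. Dio3 (chr12:110279068-110281097, plus strand) had 2.55 TPM from 108 counts and 0.97 TPM from 35 counts. The log2 ratio of Dio2 to Dio3 was 2.90 in replicate 2 and 4.23 in replicate 1, a mean of 3.57 ± 0.94 or 11.9-fold, and 3.47 ± 0.75 by the read-based quantification. Dio1, the deiodinase of liver and kidney, had 0 counts. Dio3os, which lies beside Dio3 and is transcribed from the other strand, had 4 and 3 counts. Its TPM stood 4.25-fold below that of Dio3 (log2 ratio −2.09 ± 0.22), a value that rests on those few counts.

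Genes that build and insert selenocysteine were present. Sephs2, which makes the selenium donor, had 21.7 ± 2.32 TPM, Pstk, a kinase that prepares the transfer RNA, had 17.1 ± 2.07 TPM, and Eefsec, the elongation factor, had 11.0 ± 0.042 TPM. All 5 such genes on the list were at a TPM of 1 or more in each library. The 4 genes for deiodinase turnover did so too, and they stood above both deiodinases. Marchf6, a ubiquitin ligase, had 87.2 ± 0.361 TPM. Usp33 and Usp20, enzymes that remove ubiquitin from the type 2 deiodinase, had 50.8 ± 0.566 and 35.1 ± 4.04 TPM, and Wsb1, part of another ubiquitin ligase, had 46.2 ± 10.2 TPM.

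Among the receptors, Thra far exceeded Thrb. Thra (chr11:98740638-98769006) had 584 TPM in replicate 2 and 583 TPM in replicate 1, from 25482 and 23266 counts. Thrb (chr14:17660261-18038090) had 17.4 and 14.9 TPM, from 881 and 818 counts. The log2 ratio of Thra to Thrb was 5.17 ± 0.15, or 35.9-fold, and 4.49 ± 0.25 in the read-based tables.

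Most Thra TPM went to alpha2, the form that does not bind hormone. Alpha2 (Thra-201, 492 codons) held 60.0% of the gene's TPM in replicate 2 and 60.4% in replicate 1, or 350.5 and 352 TPM. Alpha1 (Thra-202, 410 codons) held 8.22% and 8.90%, or 48.0 and 51.9 TPM. The incomplete Thra-203, which joins the shared exons to the alpha2 region, held 27.4% and 25.5%. Alpha2 exceeded alpha1 by a log2 ratio of 2.81 ± 0.07, or 7.02-fold, and by 10.1-fold with Thra-203 added. In the read-based tables these folds were 7.17 and 10.0. Alpha1 exceeded beta1, which also binds hormone, by a log2 ratio of 3.50 ± 0.01, or 11.3-fold, and by 10.6-fold in the read-based tables. That SD does not cover the error of assigning reads to forms. Beta1 here leaves out beta2, at 3.50 and 3.62 TPM, and incomplete Thrb transcripts, at 9.37 and 5.86 TPM in replicates 2 and 1. All of Thrb had 17.4 and 14.9 TPM, beside the 48.0 and 51.9 TPM of alpha1. In the read-based tables Thrb had 50.7 and 34.3 TPM, beside 72.5 and 79.0 TPM of alpha1. By expected counts alpha2 held 73.4% and 73.5% of Thra and alpha1 9.17% and 9.89%.

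**Figure D2:**
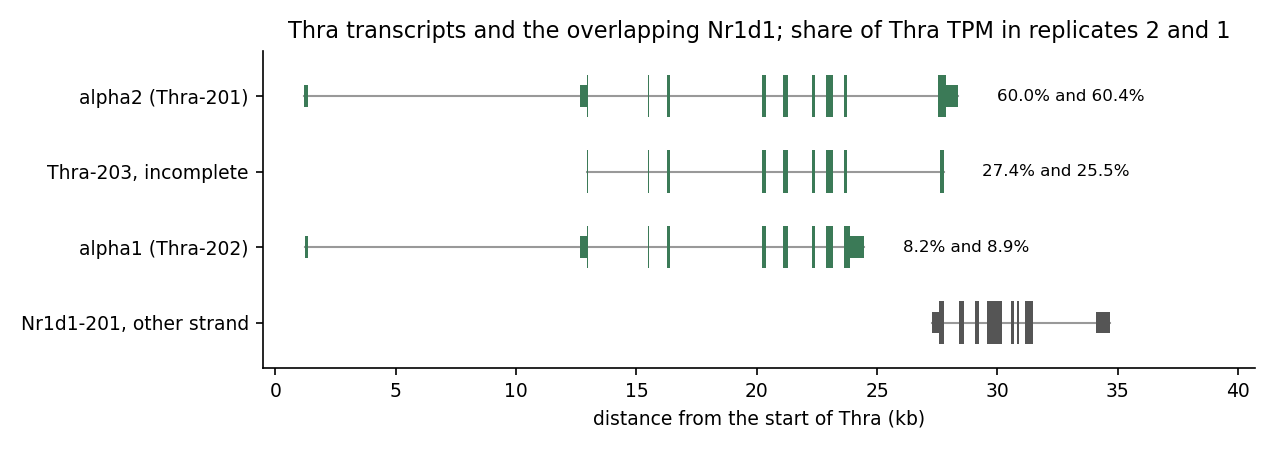
Exons (boxes, taller where coding) and introns (lines) of the 3 Thra transcripts with the highest shares and of Nr1d1 on the other strand, by distance from the start of Thra in kb. The numbers give each transcript's share of Thra TPM in replicates 2 and 1; the last exon of alpha2 overlaps the end of Nr1d1, and alpha1 ends before it.

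The end of alpha2 overlaps Nr1d1, a clock repressor gene read from the opposite strand. The overlap covers 263 exonic bases of alpha2, 130 of Thra-203 and 0 of alpha1. Nr1d1 had 22.7 TPM in replicate 2 and 17.1 TPM in replicate 1, from 1258 and 863 counts, and Thra exceeded it by a log2 ratio of 4.88 ± 0.28, or 29.5-fold. The libraries were stranded, but the sources used here do not say whether counting used the strand. Expected counts of both genes were whole numbers in both libraries, 25482 and 23266 for Thra. No fraction of a read was thus split between the 2 genes at the gene level. How reads within the overlap were assigned was not tested.

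The forms of Thrb stood close together. Beta1 (Thrb-201 and Thrb-203, 461 codons) held 23.9% of the gene's TPM in replicate 2 and 29.8% in replicate 1, and beta2 (Thrb-202, 475 codons) held 20.1% and 24.2%. The log2 ratio of beta2 to beta1 TPM was −0.27 ± 0.03, so beta2 stood 1.20-fold below, and 1.33-fold below in the read-based tables. By the rule above the forms were told apart in both. That rule covers the spread between libraries and not the error of assigning reads to forms. Deposited posterior SDs were 30.7 and 31.9 on 233 and 239 counts of Thrb-201, and 25.0 and 19.9 on 69.45 and 62.9 counts of Thrb-203. For beta2 they were 23.5 and 25.1 on 484 and 456 counts. By expected counts, which are not corrected for length, beta1 held 34.4% and 36.9%, and the longer beta2 held 54.9% and 55.8%. Of the 2204 bases of beta2 that no beta1 transcript contains, 1531 lie at the 3′ end and 325 are coding, so the assignment does not rest mainly on the start that defines beta2. Beta2 is best known from pituitary, hypothalamus and retina. The incomplete Thrb-205, Thrb-206 and Thrb-207 held 53.8% and 39.2% of TPM but 10.3% and 6.18% of counts. In the read-based tables they held 74.8% and 58.4% of TPM, and the gene's TPM moves with how much these short models receive.

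**Figure D3:**
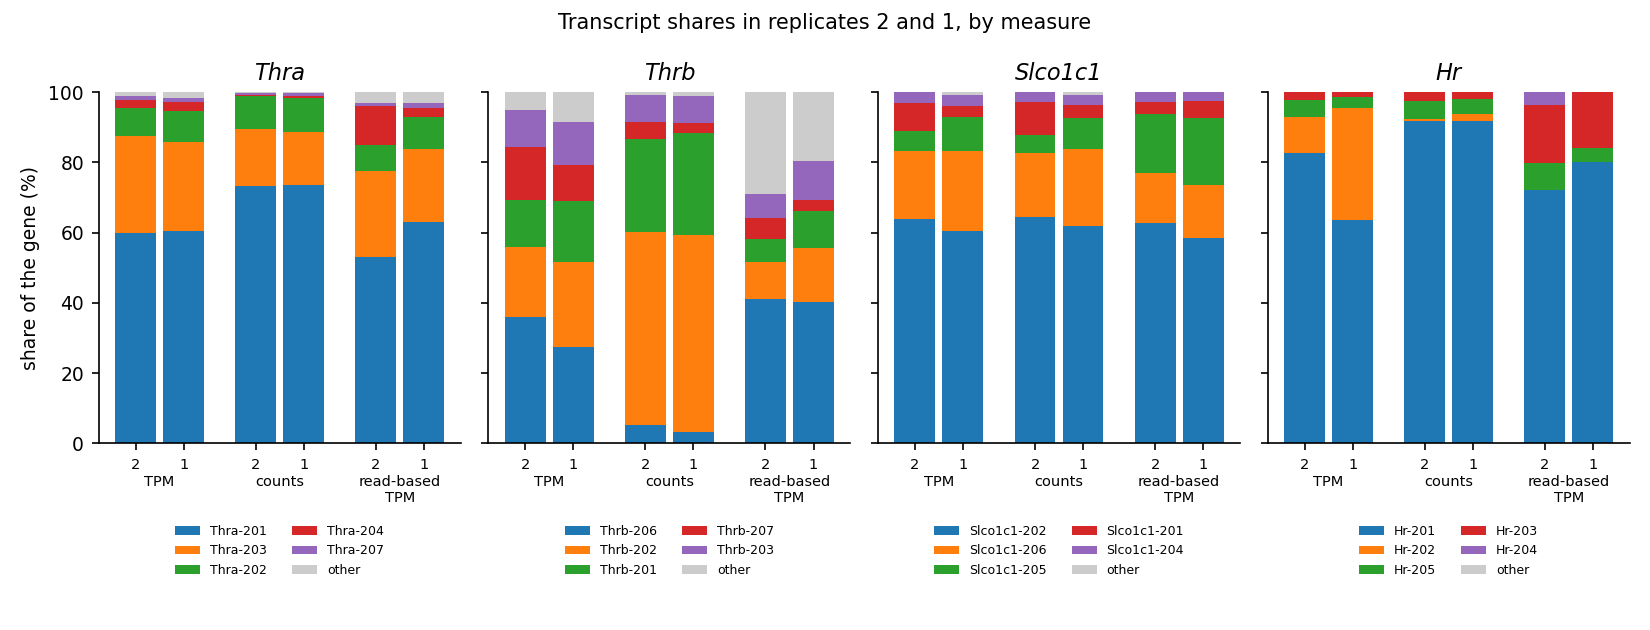
Share (%) of each gene's transcripts in replicates 2 and 1, by alignment-based TPM, by expected counts and by read-based TPM, for Thra, Thrb, Slco1c1 and Hr. The 5 transcripts with the highest mean share of TPM are coloured and the rest are grey; the short Thrb-206 takes 36.0% and 27.4% of TPM but a small part of counts, and Hr-202 takes 10.4% and 32.0% of TPM.

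The receptors' partners and cofactors were all detected. Rxrb (29.6 ± 1.51 TPM) exceeded Rxra (6.25 ± 0.559 TPM) by a log2 ratio of 2.23 ± 0.20, or 4.69-fold. Of the corepressors, Ncor1 had 103 ± 9.89 TPM. Hdac3, the deacetylase that it holds, had 49.6 ± 1.48 TPM, and Tbl1xr1, a subunit of the same complex, had 49.8 ± 6.82 TPM. All 7 corepressors and all 7 coactivators reached a TPM of 1 in both libraries, and their list medians were 46.8 ± 2.48 and 26.8 ± 2.13 TPM, beside 3.76 ± 0.269 TPM over protein-coding genes. Ncoa1 led the coactivators at 43.2 ± 2.47 TPM, followed by the acetyltransferase gene Crebbp at 32.5 ± 1.63 TPM.

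The target genes spanned a wide range of levels. Klf9 (chr19:23141226-23168134, plus strand), a zinc finger transcription factor, had 65.3 TPM in replicate 2 and 54.2 TPM in replicate 1, from 6344 and 4796 counts. Hr (chr14:70552212-70573548, plus strand) encodes hairless, a corepressor that binds the receptors, and had 8.89 and 11.6 TPM from 976 and 890 counts. Klf9 exceeded Hr by a log2 ratio of 2.54 ± 0.45, or 5.82-fold. The lower Hr TPM in replicate 2 stood beside more counts there. Hr-202, a noncoding transcript of 321 bases, held 10.4% of the gene's TPM in replicate 2 and 32.0% in replicate 1, from 4.65 and 17.0 counts. The coding transcripts of Hr had 7.97 and 7.86 TPM. In the read-based tables the gene had 12.2 and 11.4 TPM, with none given to Hr-202.

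Of 17 brain target genes, 14 stood at a TPM of 1 or more in each library, or 82.4%. Nrgn, the postsynaptic calmodulin-binding protein neurogranin, was highest at 671 ± 63.7 TPM. Mbp (167 ± 122 TPM), a structural gene of myelin, and Camk4 (102 ± 6.95 TPM), a calcium-dependent kinase, followed. Over the whole list of 66 pathway genes, 52 reached that level in both, and among the 57 that are not the 9 described here, 44 did.

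**Figure D4:**
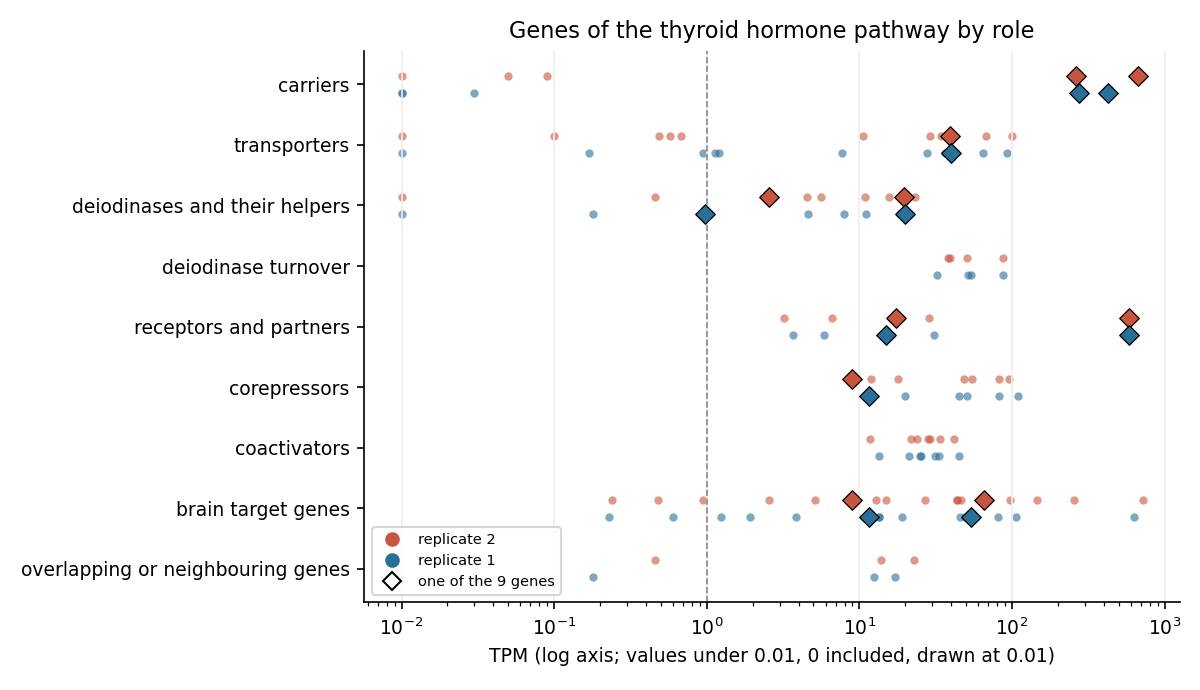
TPM (log axis) of 66 pathway genes grouped by role in replicate 2 (red) and replicate 1 (blue), with the 9 genes as diamonds and the dashed line at a TPM of 1. Coactivators and corepressors all lie above the line, while carriers and transporters include genes near 0.

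Replicate 2 was then set against replicate 1 by an exact conditional binomial test on rounded counts, scaled by the TMM method of edgeR. It compares these 2 libraries and not conditions, has no replicate check, and covers counting error only, so any difference between pools of animals adds to it. Genes were called at a Benjamini-Hochberg adjusted p under 0.05 with a log2 ratio of 1 or more in either direction. Of the 9 genes 1 was called, where the background was 2.83% of 20544 genes tested and 1.25% of 15465 protein-coding genes. By adjusted p alone 4 of 9 passed, beside 27.1% of all genes tested and 29.9% of protein-coding genes. All 4 were higher in replicate 2. Log2 ratios were above 0 for all 9 genes, but for 7 with plain totals and for 3 with spike-in totals. The median ratio was 0.10 over the 9 and 0.03 over protein-coding genes tested.

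Dio3 was the gene called. It had 108 counts in replicate 2 and 35 in replicate 1, a log2 ratio of 1.58 ± 0.28 (counting SE) with an exact binomial adjusted p of 2.19e-08. Among the 12072 protein-coding genes that reached 200 counts, 0.116% had a ratio as far from 0, although Dio3 itself had fewer counts than these. Ttr had a log2 ratio of 0.77 ± 0.02, or 1.70-fold, with an exact binomial adjusted p too small to be written as other than 0, and 0.712% of those genes lay as far out. Klf9 had a log2 ratio of 0.37 ± 0.03, or 1.29-fold (exact binomial adjusted p = 2.35e-39), and 7.46% lay as far out.

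Thra had a log2 ratio of 0.10 ± 0.01 (exact binomial adjusted p = 1.94e-12), inside the spread of most genes, since 59.4% lay as far out. With plain totals its ratio was 0.02 with an adjusted p of 0.280, and with spike-in totals it was −0.19. The other 5 genes did not pass. Slco1c1 had a ratio of 0.11 ± 0.04 (adjusted p = 0.059), Hr 0.10 ± 0.07 (0.295), Dio2 0.08 ± 0.04 (0.152), Thrb 0.07 ± 0.07 (0.496) and Crym 0.01 ± 0.02 (0.734), all as log2 with exact binomial adjusted p. Slco1c1 lay near the threshold, and with DESeq2 size factors its adjusted p was 0.033.

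Some marker lists were also higher in replicate 2, and others were not. Of 13 choroid plexus markers 12 had a ratio above 0, 6 passed at adjusted p alone, and the list's median log2 ratio was 0.46. Over protein-coding genes 54.7% had a ratio above 0 and 29.9% passed. Some other lists passed as often, all higher in replicate 2: astrocyte markers in 6 of 8, interneuron markers in 5 of 7 and microglia markers in 3 of 5. Endothelial markers passed in 2 of 8, both higher in replicate 2, and ependyma markers in 0 of 6. Of 8 excitatory neuron markers, 4 passed higher and 1 lower in replicate 2. Myelin markers summed to 570.4 TPM in replicate 2 and 194 TPM in replicate 1, all 7 were called higher in replicate 2, and none was at 0. The part of either list in the ratios of Ttr, Dio3 and Klf9 was not tested. Meningeal markers were nearly level as a sum, at 87.0 and 86.6 TPM. Of the 6 tested, 1 passed higher and 1 lower in replicate 2 at adjusted p alone. Markers of neighbouring thalamus and hypothalamus summed to 21.3 TPM in replicate 2 and 37.1 TPM in replicate 1. Slc17a6 and Tcf7l2 supplied nearly all of both sums. Of the 3 markers tested, these 2 passed at adjusted p alone, lower in replicate 2. The other genes of that list, Trh and Avp among them, stayed below a TPM of 1 in both libraries. Whether the sums reflect neighbouring tissue was not tested. Of the 57 other pathway genes 50 were tested. Of these 3 were called, among them Mbp and Mag, beside 1.25% of protein-coding genes, and 22 passed at adjusted p alone, beside 29.9%. Mag was named after its value was seen.

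**Figure D5:**
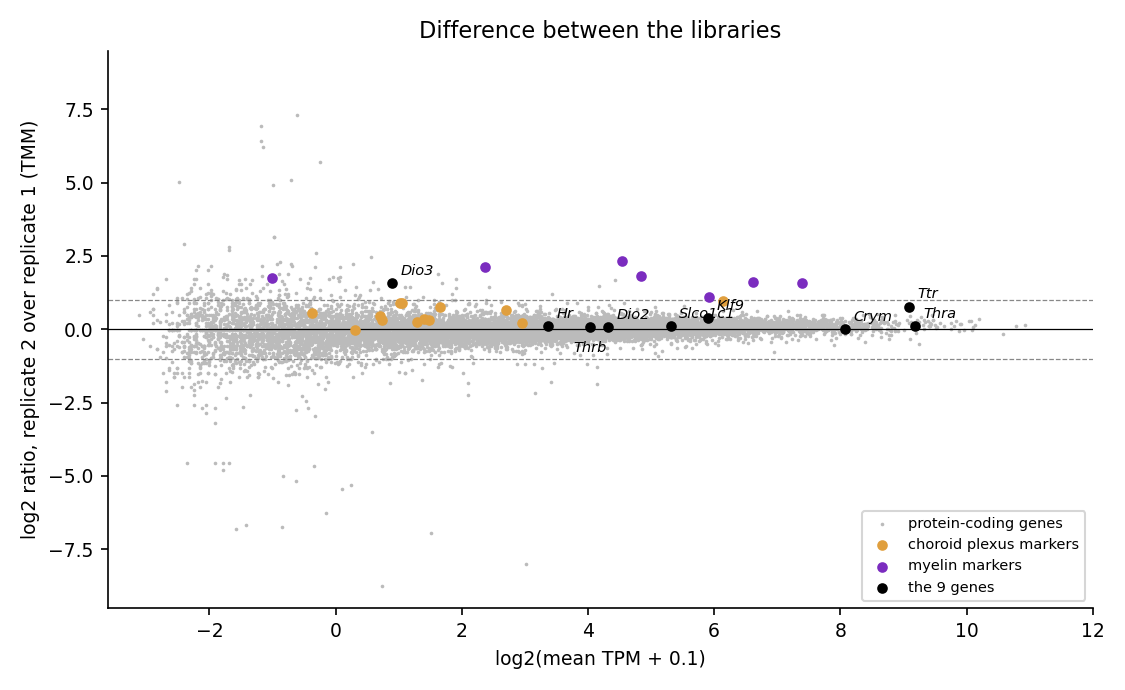
Log2 ratio of replicate 2 over replicate 1 against log2 of mean TPM + 0.1 for the protein-coding genes tested (grey), with the 9 genes (black), choroid plexus markers (orange) and myelin markers (purple). Dio3 lies above the dashed line at a log2 ratio of 1, Ttr at 0.77 and Klf9 at 0.37, while the other 6 genes lie close to 0.

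RefSeq promoters (build GRCm38.p6, 250 bases before to 50 after each start) were held for 5 of the 9 genes, in 6 windows. The receptor motif AGGTCA, searched on both strands, occurred in 1 of the 6, that of a Thrb start, and in 16.3% of 32851 promoters. A pair of such motifs in the same direction with 4 bases between them occurred in none of the 6 and in 0.0152% of all promoters. A match is a description of letters, and no match says only that they are not in this window.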

How the data were processed

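For each library the authors deposited gene and transcript tables made from transcriptome alignments, and another transcript table made from the reads and an index. All used mouse build mm10 and annotation M21, per the deposited readme. The sources used here do not give the programs, their versions or the use of strand in counting. Reads of the F1 hybrids were assigned to genes of 1 reference build, and parental alleles were not separated here. Deposited expected counts are estimated numbers of reads and carry no normalization. Deposited TPM is abundance per length, with every library, spike-ins among its entries, brought to the same total. Deposited FPKM, per kilobase and library size, was used in 1 alternative. Deposited transcript percent is each transcript's share of its gene's TPM. A deposited score, the posterior SD of each count, is given for some Slco1c1 and Thrb transcripts as a limit but supports no result.

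Read-based values were summed per gene. Expected counts were rounded for the binomial test, genes with 10 or more counts were tested, and a pseudocount of 0.5 entered the ratios. Scaling used edgeR 4.0.16 and, as an alternative, DESeq2 1.42.0 in R 4.3.3. Python 3.11.15 with scipy 1.17.1 did the rest, tested on simulated data. Spike-ins took 0.393% and 0.341% of counts. The 9 genes, the lists and the tests were chosen with earlier results of these data known. Named genes were all 9, the genes of the pairs, and up to 4 of each list in order of mean TPM. Some genes that this rule selects are not reported here, though they enter the counts. Genes at 0 counts were named after their values were seen.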

Additional observations from a re-analysis of the deposited data

How the results depend on the processing

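With 2 libraries of 1 group, differences between genes or forms had no test. Low depth limits the ratio of Dio3os to Dio3, which rests on 4 and 3 counts of Dio3os. All 9 gene pairs stayed told apart in the read-based tables and with pseudocounts of 1 and 0.01. The median level of the 9 genes, 39.5 TPM, was 59.3 in the read-based tables, 88.1 when TPM was rescaled to protein-coding genes and 27.6 as FPKM, and it ran from 39.3 to 39.8 when either replicate was left out. The share of alpha2, 60.2%, was 58.0% in the read-based tables, 63.2% within coding transcripts, and 60.0% to 60.4% with either replicate left out. Pathway genes detected ran from 53 to 55 with either replicate left out.

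Of genes called between the libraries there were 582, against 1276 with spike-in totals and 311 with a minimum of 50 counts. By adjusted p alone there were 5572, against 11154 with spike-in totals. Spike-in scaling moved the median log2 ratio of protein-coding genes to −0.26, from 0.03 with TMM, and that of the 9 genes to −0.18. All 9 genes then passed at adjusted p alone, 3 with a ratio above 0, and Thra turned round to −0.19. Of genes at adjusted p alone, 57.7% were higher in replicate 2 with TMM, 31.4% with plain totals and 3.43% with spike-in totals. Of genes called, 20.3% were higher in replicate 2 with TMM and 6.90% with spike-in totals. Read-based counts took the number of the 9 genes at adjusted p alone to 8. Dio3 was called under every one of these settings.

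TMM factors were taken over genes with 10 or more counts. That choice was made after seeing the data, and factors over all annotated genes gave Slco1c1 an exact binomial adjusted p of 0.043 in place of 0.059 and 5 of the 9 genes at adjusted p alone. DESeq2 size factors gave it 0.033, a minimum of 50 counts 0.049 and read-based counts 0.010. The cause of these shifts was not tested. No paired analysis was possible because the series has 1 group.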

Other observations

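Other genes of the neighbourhood and of the target list differed between the libraries beside Klf9. Nr1d1, the clock gene that overlaps alpha2, had 22.7 TPM in replicate 2 and 17.1 TPM in replicate 1, a log2 ratio of 0.51. Dbp, a target gene that also cycles with the time of day, had 26.8 and 19.0 TPM, a log2 ratio of 0.55, and passed at adjusted p alone as Nr1d1 did. Dbp was named after its value was seen. Of 16 brain target genes tested, Klf9 and Dbp among them, 9 passed at adjusted p alone. All 9 were higher in replicate 2, beside 29.9% of protein-coding genes passing in either direction. Any part of the time of day was not tested.

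At adjusted p alone, 29.9% of protein-coding genes passed, and 66.2% of those were higher in replicate 2. Of 10 transporters tested, 4 passed higher and 1 lower in replicate 2, and of the 4 turnover genes 2 passed higher and 1 lower. Of the coactivators 0 of 7 passed by the exact binomial test, and 2 had an unadjusted p under 0.05, beside 38.7% of protein-coding genes. Marker sums not given above were 1654 and 1344 TPM for excitatory neurons and 396 and 358 TPM for interneurons in replicates 2 and 1. They were 103 and 84.5 TPM for microglia and 22.8 and 25.5 TPM for ependyma.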
